A study of Mus musculus with 22 samples.

Results

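In mouse induced pluripotent stem (iPS) cells of the line called C3, 433 chromatin regions carried more acetylation of histone H3 at lysine 27 (H3K27ac) than in OSKM iPS cells, while the line C2 stayed at or near the OSKM level. They were taken from 125232 H3K27ac regions on chromosomes 1 to 19 without 8 (135566 regions in all). A region was a member if the smaller of its C3 values was at least 20 normalized reads and at least 2 times the larger OSKM value, and if the larger C2 value was at most 25% above the larger OSKM value. The members were 0.346% of the regions considered. The limits on C3 alone were met by 11619 regions, or 9.28%. Of those, 433 (3.73%) were members, 4839 (41.6%) passed the same limits in C2 as well and are called gained in both, and 6347 (54.6%) had C2 between the limits. The members were thus chosen by the H3K27ac values of all 6 libraries, and these values are described here without a test. Tests were made on another mark, trimethylation of H3 at lysine 9 (H3K9me3).

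H3K27ac is laid down at active enhancers and promoters. H3K9me3 marks heterochromatin and silenced repeats and genes, and its removal is known to be a slow step when fibroblasts are turned into iPS cells. Zinc-finger artificial transcription factors (ZFATF) are designed DNA-binding proteins that can stand in for natural factors in such reprogramming.

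The cells came from mouse embryonic fibroblasts of strain C57BL/6. C3 cells had received ZFATF1, ZFATF2 and ZFATF4 with Sox2, Klf4 and c-Myc. C2 cells had received ZFATF1, ZFATF2 and ZFATF3 with the same Sox2, Klf4 and c-Myc, so the lines differ by ZFATF4 in place of ZFATF3. OSKM cells had received Oct4, Sox2, Klf4 and c-Myc. All iPS cells carried an Oct4-MerCreMer with a Tomato/GFP reporter and were given 100 nM 4-hydroxytamoxifen. Each line gave 2 libraries per mark. The HA tag of the artificial factors was mapped at day 20 in C2 cells, against cells with an empty vector and Sox2, Klf4 and c-Myc (Empty), with 2 libraries each. HA was not analysed here for C3. The labels do not say whether replicates are cultures, clones or repeated precipitations, so p-values measure the spread between these samples, which may be technical. C2 and OSKM shared a pair of input libraries and C3 had its own pair, for both marks, so a difference between inputs and a difference of C3 cannot be told apart.

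Few members covered an annotated start site, and 3 coding genes among these, all but those with Gm or Rik symbols, are shown because the member lies on their promoter. Slco4a1 encodes an organic anion transporter, and Hdc encodes histidine decarboxylase, which makes histamine. Ccdc172 encodes a coiled-coil protein. Each sequence runs from 250 bases before to 50 bases after the RefSeq start site on GRCm38.p6 (mm10), 5′ to 3′ on the gene's strand. They lie at chr2:180455995-180456294 (plus strand), chr2:126618629-126618928 (minus strand) and chr19:58511735-58512034 (plus strand). Capitals mark matches on either strand to any of 9 searched motifs, and the sequences follow in that order.
Slco4a1: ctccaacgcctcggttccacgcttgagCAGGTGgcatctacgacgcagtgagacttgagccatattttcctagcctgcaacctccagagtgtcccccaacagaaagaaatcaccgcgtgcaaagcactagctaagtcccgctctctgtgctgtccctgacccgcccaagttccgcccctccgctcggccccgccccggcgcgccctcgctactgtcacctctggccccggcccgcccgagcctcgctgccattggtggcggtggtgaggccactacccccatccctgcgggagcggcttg
Hdc: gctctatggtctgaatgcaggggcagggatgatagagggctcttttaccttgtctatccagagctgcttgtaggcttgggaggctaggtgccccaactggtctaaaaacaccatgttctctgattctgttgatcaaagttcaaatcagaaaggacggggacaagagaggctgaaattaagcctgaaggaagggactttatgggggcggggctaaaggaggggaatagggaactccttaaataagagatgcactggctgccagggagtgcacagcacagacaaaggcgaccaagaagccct
Ccdc172: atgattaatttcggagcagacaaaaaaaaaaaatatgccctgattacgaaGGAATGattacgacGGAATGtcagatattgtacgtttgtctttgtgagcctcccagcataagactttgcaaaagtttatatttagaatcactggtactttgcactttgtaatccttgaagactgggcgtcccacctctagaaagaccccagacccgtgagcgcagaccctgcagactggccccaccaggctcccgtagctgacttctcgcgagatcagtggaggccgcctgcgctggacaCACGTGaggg
The Slco4a1 stretch held 1 match to the SNAIL motif CAGGTG, and that of Ccdc172 held 2 matches to the TEAD motif GGAATG and 1 to the E-box CACGTG. That of Hdc held none of the 9.

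Other members lay inside Mir100hg, the host gene of a microRNA cluster known for its part in differentiation. It was picked after its values were seen. The members lay at chr9:41557368-41558811 and chr9:41562585-41563700, between the hairpins of miR-100 and let-7a-2 on the one side and of miR-125b-1 on the other. The mature RNAs from RefSeq follow, apart from miR-100-3p and miR-125b-1-3p, with the seed (bases 2 to 8) in capitals. For let-7a-2 the source used here listed only the 3p strand in this gene. No 2 of the printed RNAs share a seed.
miR-100-5p: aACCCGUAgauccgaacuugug
let-7a-2-3p: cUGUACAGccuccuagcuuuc
miR-125b-5p: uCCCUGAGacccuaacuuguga
The first of these members had 60.2 and 98.2 normalized reads in C3, 17.6 and 11.5 in C2 and 27.6 and 13.9 in OSKM. The second had 39.3 and 81.8 normalized reads in C3, 17.6 and 1.28 in C2 and 17.7 and 7.94 in OSKM. C3 was above both other lines in both, and the values of C2 and OSKM overlapped.

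The reads in regions were 17649231 and 10857991 in C3, 12943968 and 7033486 in C2 and 12400030 and 13988581 in OSKM. C2 replicate 2 thus held the fewest reads. It was at the lowest value of the tables, 1 read, in 21.2% of members (92), and C2 replicate 1 was in 6% (26). Over all regions the shares were 28.8% and 29.6%. Without C2 replicate 2 the rule gave 723 regions, and without C2 replicate 1 it gave 1897. Marker genes of pluripotent and other cells were checked on the same mark. Of 11 genes of the naive and core pluripotency list with a region over their start site, 11 in C3, 10 in C2 and 11 in OSKM had at least 100 normalized reads in both libraries, Nanog, Pou5f1 and Sox2 among them. The median over these genes, by the lower library of each line, was 1534 in C3, 1026 in C2 and 2858 in OSKM. Of 5 fibroblast and mesenchymal genes with such a region, 2 (Snai1 and Vim) reached that level, in all 3 lines. Of 9 primed and formative pluripotency genes, 8 in C3, 5 in C2 and 6 in OSKM reached it. Of 11 endoderm genes, 9 in C3, 5 in C2 and 4 in OSKM did. In both of these lists the level was thus reached most often in C3. The C2 values were scaled separately from those of C3 and OSKM, so the same level is not strictly alike between lines.

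C2 and OSKM values come from tables scaled separately: OSKM values in the table with C2 are 0.92 times those in the table with C3. Unless stated, OSKM values below are from the table with C3, and values are normalized reads. Over the 433 members the median was 61.9 and 55.6 in the C3 libraries, 16.8 and 12.8 in the C2 libraries and 14.3 and 19.9 in the OSKM libraries. The ratio of the smaller C3 to the larger OSKM value had a median of 2.33 and quartiles of 2.13 and 2.77. Most members therefore stood near the limit: 270 had a ratio under 2.5, 79 reached 3 and 25 reached 4. Among regions gained in both lines the median ratio was 5.88. The C2 ratio to OSKM had a median of 0.993 in members, and in 219 members the larger C2 value was below the larger OSKM value.

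The 2 members nearest to the C3 limit had ratios of 2.001 and 2.003, and the 2 regions just outside it both had 1.999. At the C2 ceiling the nearest members had C2 24.99% and 24.95% above OSKM, and the nearest regions outside had it 25.2% and 25.5% above. Both nearest members at the minimum had 20.1 normalized reads in C3, and both nearest regions outside had 19.6. The member set thus ends in the middle of a continuous spread of values. In the table of C3 with C2, the smaller C3 value was above the larger C2 value in all 433 members and at least 2 times it in 333. That table holds the same libraries as the rule, whose limits place C3 above C2 apart from the scaling of each table. The first count was thus fixed by the choice of members.

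**Figure D1:**
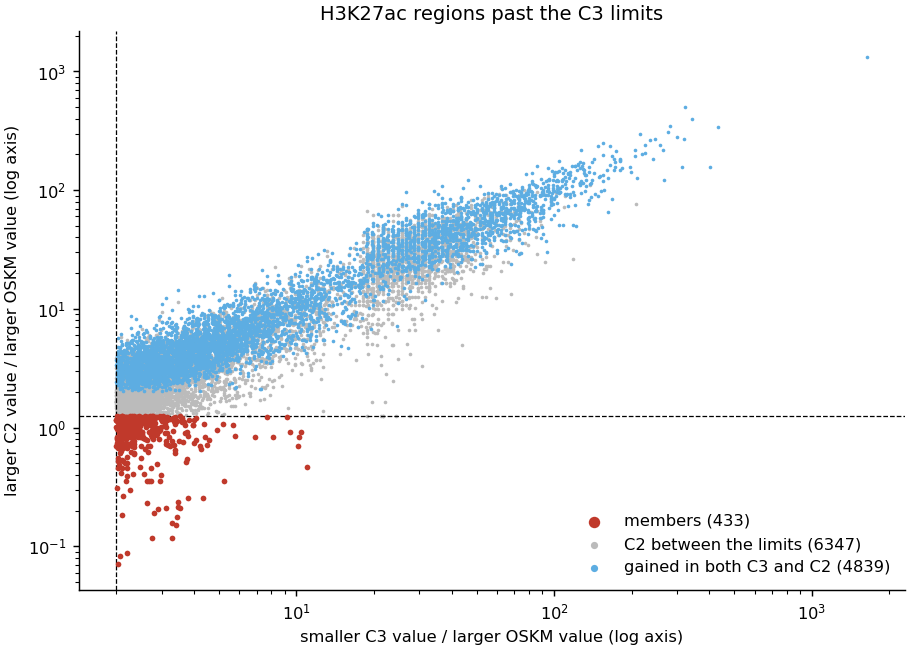
Each point is 1 of 11619 H3K27ac regions past the C3 limits, placed by the smaller C3 value over the larger OSKM value (horizontal, log axis) and the larger C2 value over the larger OSKM value (vertical, log axis). Dashed lines mark the C3 limit of 2 and the C2 ceiling. The 433 members lie along the lower left edge, most of them near a C3 ratio of 2.

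Some members rest on few reads. In 212 the smaller C3 value was under 50, in 111 it was at least 100 and in 40 at least 200. An OSKM library was at 1 read in 75 members, and both were in 0. The C3 libraries differed by over 2-fold in 16 members, the C2 libraries in 153 and the OSKM libraries in 188. The choice of members required both C3 values to be high, while a C2 or OSKM library could be at 1 read. The lower count for C3 thus follows in part from this choice and does not measure how close the replicates of each line are.

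Peaks called by the authors in each library describe the same data. Both C3 libraries had a peak on 422 members (97.5%), against 50.7% of all regions. Neither C2 library had one on 259 (59.8%, against 40.8% of all regions), and neither OSKM library had one on 243 (56.1%, against 49.2%). The commonest pattern, in 204 members, was a peak in both C3 libraries and in no other. The choice of members favoured it, and the shares of such patterns over all regions are not given here. At the other end, 49 members had a peak in all 6 libraries, so acetylation there was present in every line and higher in C3. Peaks of C2 replicate 1 lay on 40% of members and those of C2 replicate 2 on 12.2%. Over all regions these libraries had peaks on 57.1% and 34.6%.

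The members with most acetylation were broad. The highest lay in the long non-coding RNA gene Gm38953 (chr11:94265497-94277167, 11671 bp), at 2050 and 1791 normalized reads in C3, 810 and 563 in C2 and 396 and 720 in OSKM. Every C3 value was above every other value there, while C2 and OSKM overlapped. The next, over the start of Slco4a1 (chr2:180453877-180460962), had 935 and 909 in C3, 487 and 321 in C2 and 391 and 429 in OSKM. Here too C2 and OSKM overlapped, and C3 stood apart by its 2.12-fold ratio. The members at Hdc (chr2:126617725-126620360) and Ccdc172 (chr19:58511765-58512722) were lower. The Hdc member had 160 and 167 in C3, 84.1 and 86 in C2 and 41.9 and 77.4 in OSKM. That of Ccdc172 had 97 and 93.8 in C3, 36.1 and 37.2 in C2 and 22.1 and 32.8 in OSKM. In both, the C2 values lay above both OSKM values of that comparison, inside the 25% ceiling.

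Other members of high signal lay in Ipo11, which encodes a nuclear import receptor, and in Nhej1, a factor of DNA end joining. The Ipo11 member had 555 and 474 in C3, 181 and 177 in C2 and 232 and 202 in OSKM. C2 was below OSKM there. Nhej1 held 2 members, the larger (chr1:75025776-75030891) with 768 and 467 in C3, 166 and 153 in C2 and 79.5 and 194 in OSKM. Its OSKM libraries lay on either side of C2. Near Tnfsf9, the ligand of a co-stimulatory receptor of T cells, a member 12028 bp away had 581 and 422 in C3, 157 and 87.2 in C2 and 152 and 199 in OSKM. The 10 highest also held the Itga4 member described below, Gm6166, Gm18518, a region near Gm25582 and a region 4534 bp from Myh13, with C3 values of 416 to 899.

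**Figure D2:**
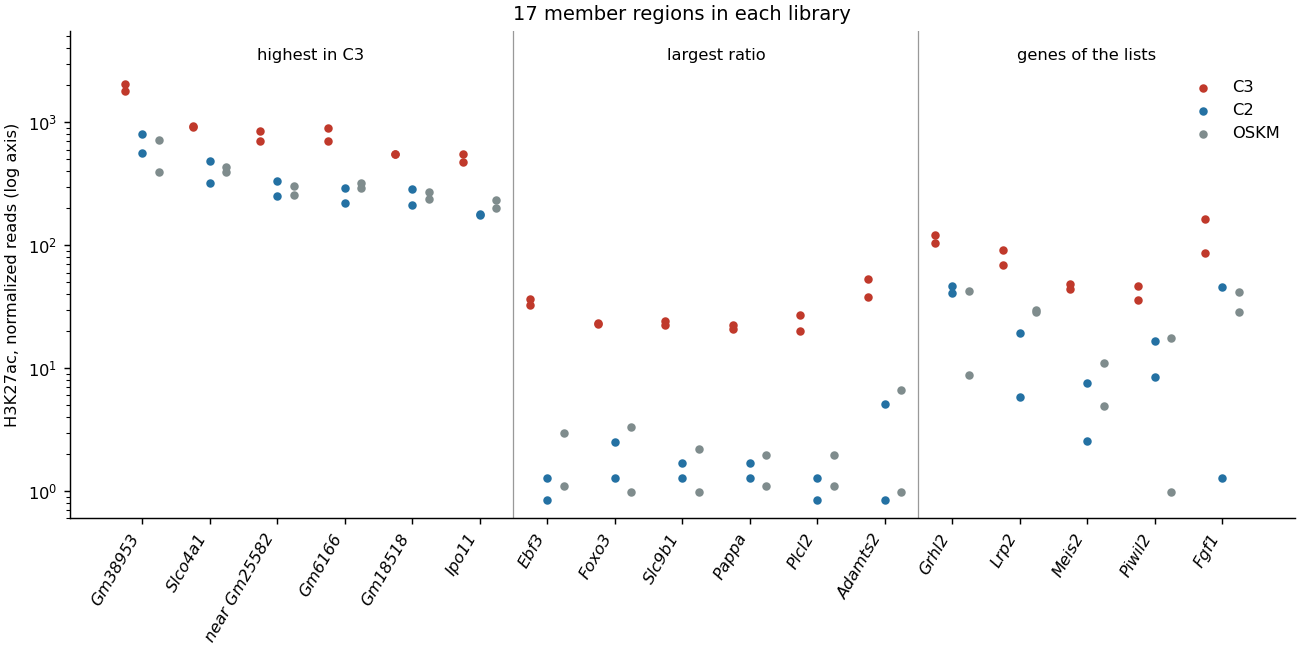
H3K27ac in normalized reads (vertical, log axis) for 17 members, with both libraries of C3, C2 and OSKM as points: the 6 highest in C3, the 6 with the largest ratio among named genes, and the 5 in genes of the lists. C3 points stand above both other lines in each member, and C2 and OSKM points mostly overlap.

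The largest ratios came from members with little signal outside C3. In Ebf3, a transcription factor of neural and mesenchymal development, a member (chr7:137193984-137194557) had 36.8 and 32.7 in C3, 0.841 and 1.28 in C2 and 1.1 and 2.98 in OSKM. Both C2 libraries were at 1 read. The OSKM libraries held 1 and 3 reads. The ratio of summed reads, scaled by the normalization of the libraries, was 16.8, with a 95% counting interval of 6.28 to 63.1. Members next to Foxo3, a forkhead factor of stress responses, and in Slc9b1, a sodium/proton exchanger of sperm, had such ratios of 11.1 (4.07 to 42.3) and 14.8 (4.77 to 74.2). Pappa, a protease that cleaves IGF-binding proteins, had 13.9 (4.46 to 69.8). Adamts2, which trims procollagen, had 12.8 (5.99 to 32.7). The intervals cover counting error only, and their width comes from the few OSKM reads. They were computed from the reads that chose and ranked these members, so they describe these reads and are no test of the gain. Members in Plcl2 and Wfikkn2 had 20 to 27.3 normalized reads in C3 and at most 1.28 in C2.

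Further down the same ranking the signal was higher. In Crb1, a polarity protein of the retina, the member (chr1:139193145-139196916) had 565 and 300 in C3, 78.2 and 84.7 in C2 and 7.73 and 83.4 in OSKM. The OSKM libraries differed by over 10-fold there, with C2 near the higher of them. In Kl, the FGF co-receptor Klotho, it had 74.4 and 78.5 in C3, 13.4 and 16.7 in C2 and 16.6 and 19.9 in OSKM. In Lpar1, a lysophosphatidic acid receptor, it had 78.6 and 63.3 in C3, 8.41 and 1.28 in C2 and 12.1 and 16.9 in OSKM. C2 was below both OSKM values in Lpar1. That held for 13.9% of members (60) and for 21% of all regions, by values that the choice of members used. The others by rank were Igk, Cntn5, Lrriq4, Ano1, Slc25a21, Meis2, Dnah8, Olfr1127-ps1, Pik3c2g, Fam174b, Ntn1, Csmd3, Ptprj, Nr1h4 and Zdhhc14, with ratios of the smaller C3 to the larger OSKM value of 3.54 to 4.93.

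Genes with several members were few. Of 254 genes with a member within 2500 bp of their extent (169 protein-coding, 62 long non-coding), 18 had at least 2. Cerkl, a ceramide-kinase-like protein of the retina, had 4, and Itga4, the alpha chain of an integrin of blood cells, shares 1 of them. Within 38.8 kb (chr2:79329042-79367880) the 4 members alternated with other regions. The Itga4 member had 549 and 416 in C3, 155 and 151 in C2 and 137 and 179 in OSKM. The first Cerkl member (chr2:79363636-79365109) had 107 and 140 in C3, 36.1 and 24.4 in C2 and 41.9 and 47.7 in OSKM. The neighbouring regions outside the set were either below 20 normalized reads in C3 and OSKM (2 of them) or above OSKM by less than 2-fold (the other 2). Within 50 kb on each side, 2 regions were gained in both lines.

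**Figure D3:**
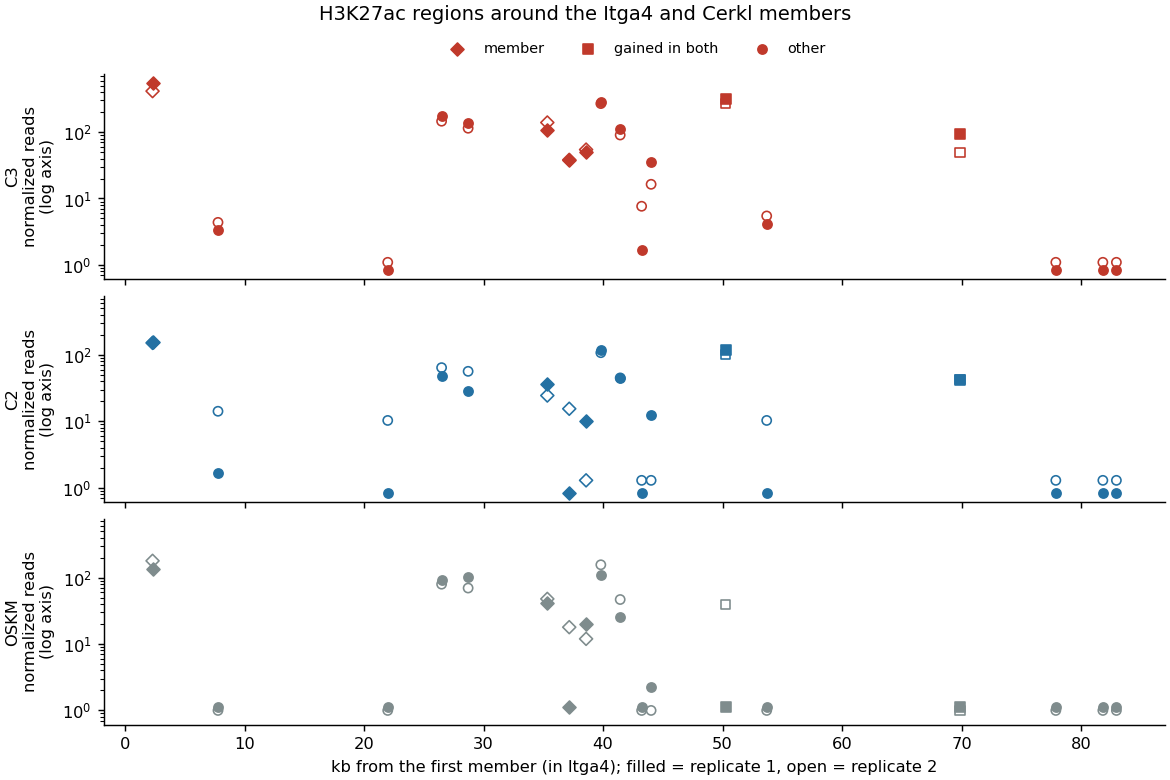
H3K27ac in normalized reads (vertical, log axis) of every region within 50 kb of the 4 members at Itga4 and Cerkl, against distance in kb from the first of them, for C3, C2 and OSKM from top to bottom. Filled and open symbols are replicates 1 and 2; diamonds are members, squares regions gained in both lines. Members and squares are both lower in C2 than in C3; the members are at like levels in C2 and OSKM, and the squares are lower in OSKM than in C2.

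A second group of 4 spanned 82.2 kb at Cd180 and Mast4 on chromosome 13. Its highest member, 1218 bp from Cd180, a receptor of B cells, had 339 and 377 in C3, 99.2 and 128 in C2 and 106 and 152 in OSKM. A group of 3 lay on chromosome 2 near Gm40031. The other members lay alone (370) or in 26 pairs, taking members within 50 kb as a group. Bcl11a, a zinc-finger repressor of blood and brain, Auts2, a gene of neural development, Cntn5 and Opcml, neural adhesion proteins, the receptor phosphatase Ptprj and the phospholipase receptor Pla2r1 had 2 members each. The higher Bcl11a member had 194 and 108 in C3, 31.9 and 23.1 in C2 and 36.4 and 33.8 in OSKM. The immunoglobulin kappa locus Igk had 3, with C3 values of 21.7 to 75.3.

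Members were spread over all 18 chromosomes considered, with 51 on chromosome 2, 37 on chromosome 10 and 33 on chromosome 1. As a share of the regions of a chromosome they ran from 0.2% on chromosome 17 to 0.491% on chromosome 2. They lay farther from genes than other regions did: 48.7% were inside a gene extent, against 64.8% of regions gained in both lines and 63.1% of all regions. Exons and introns were not used here. A member covered a start site in 2.4% (10 of 417 members on chromosomes with a start-site table), against 3.61% of regions gained in both and 8.19% of all. More than 50 kb from any listed start site lay 37.9% of members, 26.5% of regions gained in both and 25.7% of all. The start-site table is incomplete and has no entry for chromosome 18, so these distances are upper limits.

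The gene lists held few members. Of 354 measured genes on 17 lists, 5 (1.41%) had a member within 2500 bp, where 0.927% of all 27386 measured genes did. Regions gained in both lines lay at 67 of the 354 (18.9%), with 8.84% of all measured genes. Grhl2, a transcription factor of epithelia and of formative pluripotent cells, had a member (chr15:37310074-37311530) with 120 and 105 in C3, 46.2 and 41.1 in C2 and 8.83 and 42.7 in OSKM. Lrp2, the endocytic receptor megalin of visceral endoderm, had one with 91.2 and 68.7 in C3, 5.88 and 19.2 in C2 and 29.8 and 28.8 in OSKM. C2 was below OSKM in Lrp2. In Grhl2 C2 was above OSKM, which had 8.13 and 39.2 in the table with C2. The homeobox gene Meis2 had one with 44.3 and 48 in C3, 7.57 and 2.57 in C2 and 11 and 4.96 in OSKM. That of Piwil2, a germline protein of the piRNA pathway, had 36 and 46.9 in C3, 8.41 and 16.7 in C2 and 17.7 and 0.993 in OSKM. That of the growth factor gene Fgf1 had 164 and 86.2 in C3, 45.4 and 1.28 in C2 and 28.7 and 41.7 in OSKM. In both, a library of C2 or OSKM was at 1 read beside a partner at a much higher value. Of the endoderm list 1 of 23 genes had a member and 13 had a region gained in both, and of the naive and core pluripotency list 0 of 24 and 1. The Wnt, TGF-beta, Hippo, basement membrane, fibroblast, trophoblast, neuroectoderm, endothelial, imprinted and housekeeping lists had 0 genes with a member.

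The 9 motifs were searched on both strands in the 246 promoters of genes with a member within 2500 bp and in all 32851 promoters of 300 bases. The shares follow in that order. The GATA motif AGATAA was in 13% and 11.2%, the TEAD motif GGAATG in 16.7% and 14.7%, the SNAIL motif CAGGTG in 15.9% and 20.2% and the AP-1 motif TGANTCA in 4.88% and 7.81%. The E-box CACGTG was in 3.25% and 7.15%, the octamer ATTTGCAT in 2.85% and 1.74%, the SOX motif CCATTGT in 2.44% and 3.66%, the KLF motif GGGTGTGG in 3.66% and 3.56% and the forkhead motif TGTTTAC in 1.63% and 3.65%. A match is a description of letters in this window, and most members lay outside it.

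H3K9me3, which the choice of members did not use, was found over members more often than over the regions gained in both lines. An H3K9me3 region overlapped 79 of 433 members (18.2%, exact 95% binomial interval 14.7% to 22.2%), 4.46% of regions gained in both (3.9% to 5.08%), 9.09% of those with C2 between the limits and 9.14% of all regions. The intervals treat regions as independent, which neighbours are not. The share in members was 24.3% for widths of at least 1000 but under 3000 bp, against 7.99% of all regions of that width. It was 37.9% for 3000 bp or more, against 12.8%. In members under 1000 bp it was 9.09%, against 10.3% of all, so the difference from all regions was not seen in narrow members. Inside genes it was 15.2% against 5.34%, and outside 21.2% against 15.7%. The 79 members had a median width of 1289 bp, and the other 354 of 984 bp, with median C3 ratios of 2.29 and 2.34. Coverage of the member was often partial: at least 50% of the width was covered by H3K9me3 regions in 33 of the 433 members, or 7.62%, against 5.18% of all regions.

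**Figure D4:**
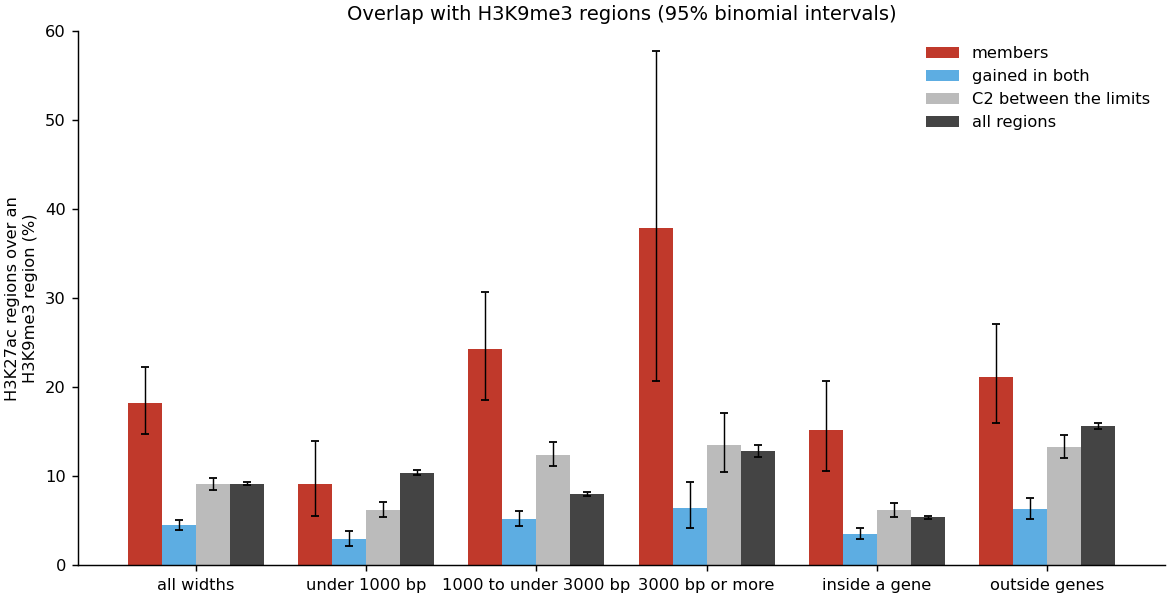
Bars give the share of H3K27ac regions that overlap an H3K9me3 region (percent, from 0), for members, regions gained in both lines, regions with C2 between the limits and all regions, by width and by place; error bars are exact 95% binomial intervals. Members reach 18.2% over all widths, against 9.14% of all regions, and members under 1000 bp reach 9.09%, against 10.3%.

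H3K9me3 peaks called per library lay on 14.8% and 4.39% of members in C3, 8.31% and 12% in C2 and 16.4% and 16.6% in OSKM. The C3 libraries stood farthest apart from each other. Over all regions the shares were 6.94% and 3.97% in C3, 5.01% and 6.35% in C2 and 8.55% and 8.25% in OSKM.

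Of 84 H3K9me3 regions that overlap a member, 69 passed the filter on low values and were tested between C3 and OSKM with limma over all 51634 regions. In C3, 8 were lower and 0 higher at a Benjamini-Hochberg adjusted p under 0.05. That is 11.6% of the 69, where 7.35% of all regions tested were lower and 1.72% higher. With no adjustment of p, 18 regions were under 0.05 and each of the 18 was lower. The share over all regions without adjustment is not given here, and lower calls outnumbered higher ones there too. The median log2 difference was -0.43, with 54 of 69 (78.3%) below 0. Over all regions tested it was -0.06, with 54.5% below 0. The calls depended on single libraries: without OSKM replicate 1 there was 1 and without OSKM replicate 2 there were 2, while without C3 replicate 1 there were 19 and without C3 replicate 2 there were 14. In quantile-normalized data 5 were called.

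The region called under every alternative setting lay in 1700019D03Rik (chr1:52933612-52939643) and covered its member whole. Its H3K9me3 was 572 and 645 in C3 and 1393 and 1163 in OSKM, a log2 difference of -1.07 ± 0.11 (SE, n = 2 each; limma adjusted p = 0.000135). Its H3K27ac was 125 and 55.6 in C3, 12.6 and 2.57 in C2 and 1.1 and 17.9 in OSKM. The higher H3K27ac in C3 was fixed by the choice of members, so only the direction of H3K9me3 was open at this locus. In C2, where the choice kept H3K27ac near OSKM, H3K9me3 was also lower than in OSKM (log2 -0.78, limma adjusted p = 0.0152).

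The other 7 differed by more or by less. In Tnfrsf22, a decoy receptor of the TNF family, H3K9me3 (chr7:143636294-143636897) was 0.862 and 1.52 in C3, which is 1 read in each library, and 44.7 and 52.3 in OSKM (log2 -4.51, a size that depends on the pseudocount; limma adjusted p = 0.00324). In Fancd2, a DNA repair gene, it was 12.1 and 16.7 in C3 and 76.1 and 70.7 in OSKM (log2 -2.29 ± 0.43 SE; limma adjusted p = 0.00549). In Pld5, of the phospholipase D family, it was 40.5 and 22.8 in C3 and 113 and 112 in OSKM (log2 -1.85 ± 0.34 SE; limma adjusted p = 0.0049). C3 and OSKM did not overlap in any of these. Gm6166 (log2 -1.68), Mrtfb, a co-activator of serum response factor (-0.95), a region 7522 bp from Ybx1-ps2 (-0.63) and one on chromosome 1 with no gene within 2500 bp (chr1:107822477-107823026, -2.83) completed the calls, with limma adjusted p of 0.00412 to 0.0427. The chromosome 1 region had 1.72 and 4.56 in C3 and 24.7 and 28.9 in OSKM. The Pld5 and Gm6166 members are among the broader ones, at 3590 and 5392 bp, and the H3K9me3 regions cover 34.8% and 24.2% of them. Coverage was lower for Fancd2 (17.8% of its member) and the chromosome 1 region (22.8%). It was 100% in Tnfrsf22 and Mrtfb and 93.3% near Ybx1-ps2.

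**Figure D5:**
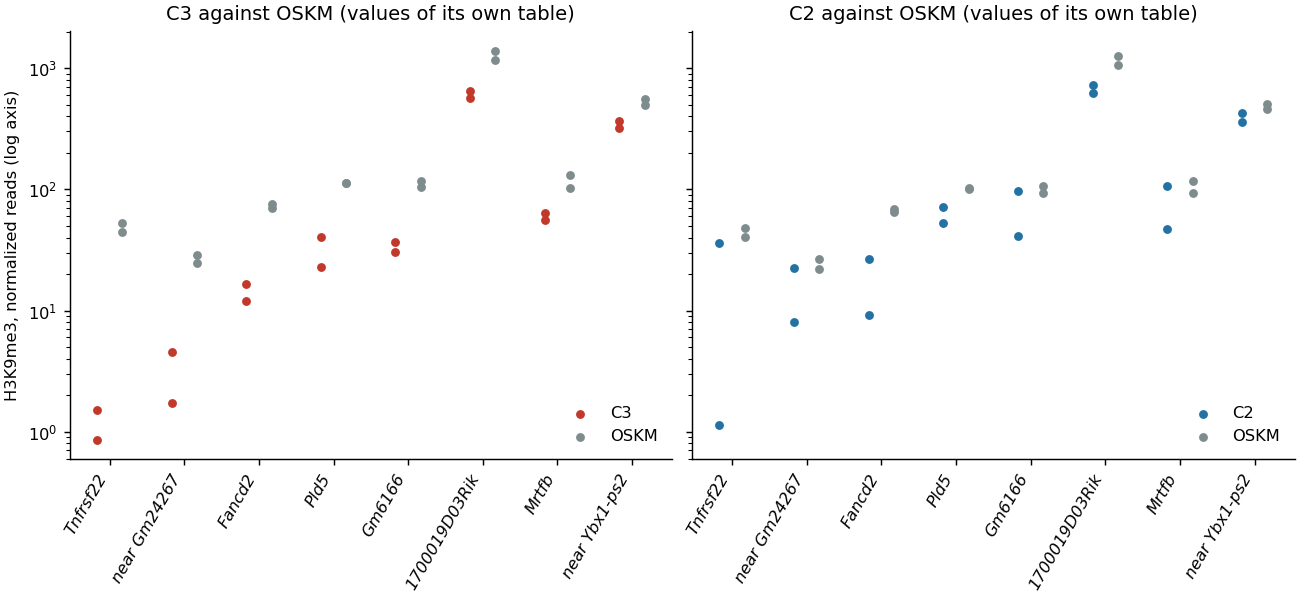
H3K9me3 in normalized reads (vertical, log axis) at the 8 regions called lower in C3 than in OSKM, with both libraries of each line as points; left, C3 beside OSKM, right, C2 beside OSKM, each with the values of its own table. C3 points lie below OSKM points in each region, by which the 8 were called. C2 points lie below OSKM points in 5 of the 8 and overlap them in 3, beside the same OSKM libraries that the calls used. Over all 84 H3K9me3 regions on members, C2 lay below OSKM in 23 and above it in 18. The share over all H3K9me3 regions is not given here.

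Between C3 and C2, 0 of 69 regions were called by limma, with 0.0465% of all regions lower and 0.0872% higher. With no adjustment of p, 8 regions were under 0.05, of which 7 were lower in C3, and the like share over all regions is not given here. edgeR's quasi-likelihood test on recovered reads called 0, and the FDR of the authors' deposited table called 0. The median log2 difference was -0.41, against 0.07 over all regions. A lack of calls does not show that the lines were alike: without C3 replicate 1 there were 3 and without C2 replicate 1 there was 1, all lower in C3.

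Between C2 and OSKM, 2 of 71 regions were lower in C2 and 0 higher (2.82% lower, with 2.9% of all regions lower and 0.389% higher). They lay at 1700019D03Rik and Fancd2, which were also called in C3 against the same OSKM libraries. At 1700019D03Rik H3K9me3 was 627 and 719 in C2 and 1249 and 1063 in OSKM, in the table of C2 with OSKM (log2 -0.78 ± 0.15 SE; limma adjusted p = 0.0152). Fancd2 had H3K9me3 values of 9.17 and 26.5 in C2 cells, against 68.2 and 64.6 in OSKM cells (log2 -2.01 ± 0.51 SE; limma adjusted p = 0.0498). The median log2 difference was -0.20, against -0.15 over all regions. Neither call held when either OSKM library was left out (0 calls each). Without C2 replicate 1 there were 11 calls (5 lower, 6 higher), and without C2 replicate 2 there were 12, all lower. Same-numbered C2 and OSKM libraries shared an input, and with the replicate number as a block 4 regions were lower and 4 higher.

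HA peaks were rare at members. A peak of C2 cells lay on 8 members (1.85%), 2 and 7 of them per library, and a peak of Empty cells on 5 (1.15%), 2 and 4 per library. Over all regions the shares were 2.33% for C2 and 1.31% for Empty. Of the 8 members, 4 also had a peak in Empty cells, which hold no artificial factor. The 4 without one lay in Fut8, a fucosyltransferase gene, and at chr17:61947805-61948978, chr7:72926371-72929067 and chr2:39691186-39692299. Their HA peaks had fold enrichments of 5.35 to 5.93, as the authors' peak caller gave them, beside medians of 5.92 and 5.93 over all peaks of the C2 libraries. The Fut8 peak lay inside its member by 100% of its length. The peaks on chromosomes 17, 7 and 2 did so by only 35.5%, 32.6% and 3.31%. Only 2506011 and 3896935 tags were kept in C2 and 1707437 and 1629753 in Empty, which limits what these libraries can show.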

How the data were processed

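ChIP-seq of H3K27ac, H3K9me3 and HA was used. The submitters' processing notes name DiffBind 1.16.2, Bowtie2 2.2.5, CASAVA 1.8.2, SAMtools 1.3 and the mm10 build. MACS, per the file headers, called each library's peaks at a q-value of 0.01 with 1 input as control, in version 2.1.0.20150731 (histone marks) or 2.1.1.20160309 (HA). The peak files deposited by the authors give a fold enrichment over local background (a ratio), a -log10 p-value and a pileup signal. The 6 region tables deposited by the authors give normalized reads (a signal scaled per table), a p-value and an FDR. Whether control reads were subtracted is not given in the sources used here. Dividing by the lowest value of a library gave whole reads for 100% of its values (tolerance 1e-06).

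The members and the gene lists were chosen with earlier results of these data known. H3K9me3 was tested with limma 3.58.1 (R 4.3.3, trend, two-sided) on log2(normalized reads + 1), with the lowest 25% of regions by mean left out and Benjamini-Hochberg adjustment over all regions of a table. edgeR 4.0.16 on the recovered reads was an alternative, and the fit was tested on simulated data. Python 3.11.15 with SciPy 1.17.1 did the rest. Intervals cover counting error only, as PCR copies are not independent molecules. Gene extents and promoters are those of RefSeq on GRCm38.p6. Named genes are the 25 with the largest ratio (OSKM values under 3 reads set to 3 reads for the ranking, predicted genes last), the 10 genes with most members, the 10 members highest in C3, member genes of the lists, members at the limits and up to 10 H3K9me3 regions called. The promoters shown are 3 that a member covers, in place of those of the genes with the largest ratio, whose members lie away from the start site. No genome was used, so members' own sequences are not shown.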

Additional observations from a re-analysis of the deposited data

Results flagged for a closer look

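At 1 of 84 H3K9me3 regions over a member (1.19%), both C3 libraries were below and both C2 libraries above the OSKM libraries. C3 and C2 lay on opposite sides of OSKM in 2.34% of all 57337 H3K9me3 regions on the same chromosomes, and neither difference passed its test here. It lies at chr10:82160771-82161121, 6706 bp from AU041133, and covers 13.4% of its member. H3K9me3 was 24.1 and 21.3 normalized reads in C3 and 30.4 and 31.4 in OSKM (log2 difference -0.43; limma adjusted p = 0.638). C2 had 34.4 and 43.2, against 27.3 and 28.6 in OSKM of the table with C2 (log2 difference 0.45; limma adjusted p = 0.642). The difference of the 2 effects was not tested; in the table of both lines H3K9me3 was 19.3 and 16.6 in C3 and 29.9 and 38.2 in C2 (limma adjusted p = 0.692).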

How the results depend on the processing

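The number of members depends on its limits and scaling. It was 1413 at a C3 limit of 1.5 times, 79 at 3 times, 276 at a minimum of 40 normalized reads, 219 and 802 at C2 ceilings of 1 and 1.5, and 281 (203 of them members) with reads scaled to the reads in regions. It was 499 at a minimum of 10, 365 (355 members) with libraries centred on the median and 532 (232 members) with quantile normalization. Leaving out a library gave 400 to 1897, the highest without C2 replicate 1. Of the 8 H3K9me3 calls of C3 against OSKM, the count was 10 with a pseudocount of 8, 15 without a filter, 5 with quantile normalization, 4 for an overlap of 50% of the member, 8 with edgeR, 9 by the FDR of the authors' deposited table and 1 to 19 without a library. For C3 against C2 it was 0 to 3 without a library and 0 under the other settings without the block. For C2 against OSKM it was 0 without a filter and with quantile normalization, 1 with centring, with edgeR and for an overlap of 50%, 5 by the authors' deposited table (1 lower, 4 higher) and 0 to 12 without a library, with 5 lower and 6 higher of the 11 without C2 replicate 1.

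With the replicate number as a block, 14, 1 and 8 regions were called (C3 against OSKM, C3 against C2, C2 against OSKM), all lower but for 4 of the 8. Deviations of same-numbered replicates correlated at 0.0354, 0.107 and 0.0024 over regions, and apart from the inputs that C2 and OSKM share by number, nothing ties same-numbered samples. HA peaks of C2 lay on 7 members at a fold enrichment of at least 5, and on 5 when 50% of the peak had to lie inside. List genes with a member numbered 5 for overlap with the extent and 7 within 10000 bp. As alternatives chosen after seeing the data, the share of members over H3K9me3 was 15% for regions with a peak in both OSKM libraries (8.25% of all regions) and 7.62% for an overlap of 50% of the member. Each of the 8 H3K9me3 regions stayed lower in C3 than in OSKM under every setting that gave it a value. As both C3 values lay below both OSKM values in each, most settings could not change this direction. It therefore does not measure how firm the calls are. With 2 libraries a line, the depth of C2 replicate 2 and the reads behind narrow members limit these results, and the cause of the changes was not tested.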
